A study of Mus musculus with 8 samples.

Results

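Wound-induced, companion layer and infundibular keratins were compared between early wound scars of mouse strains that differ in hair regeneration. The members were chosen by name as the 6 keratin genes Krt6a, Krt6b, Krt16, Krt17, Krt75 and Krt79. A gene was measured where the platform annotation pairs an array row with its symbol alone. This gave 4 measured members, Krt16, Krt17, Krt75 and Krt79, of 20259 genes in all, each from 1 row. Krt6a and Krt6b have no row of their own, and 4 rows that name either with another gene are described separately.

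Whole-skin biopsies of wound scars were measured on Affymetrix Exon arrays, with 4 mice of a strain labelled low regeneration and 4 of a strain labelled high regeneration. The sources used here give the stage only as early in wound-induced hair neogenesis, in which adult skin regrows follicles at the centre of a large wound. The sources used here give no strain name, age, sex or day of biopsy, and no treatment or engineered allele is named. Strain and regeneration level are the same division of the mice, so their parts in a difference cannot be told apart.

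Keratins are the intermediate filament proteins of epithelial cells, and a filament needs a type I and a type II keratin. Krt6a and Krt6b are type II and pair with the type I keratins Krt16 and Krt17. These are found in the outer root sheath or companion layer of hair follicles in unwounded skin and are switched on in the interfollicular epidermis at a wound edge. Krt75 is the type II keratin of the companion layer, the single sheet of cells between the outer and inner root sheaths. Krt79 is a type II keratin of the infundibulum, the upper follicle canal, and of the sebaceous duct.

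The arrays had log2 medians between 6.09 and 6.29 over all rows. Keratinocyte markers were present at like levels in both groups, with array means of 10.95 to 11.12 in low and 11.02 to 11.17 in high regeneration over 9 genes, so the label of skin held. Low 3 and low 4 stood apart by skeletal muscle markers (array means of 9.72 and 10.37 over 11 genes, against 6.77 to 6.97 in the other 6 arrays) and by adipocyte markers (8.14 and 8.22 over 8 genes, against 6.82 to 7.23). Low 2, low 4 and high 4 stood apart by the Y-linked gene Eif2s3y, at 7.67, 7.57 and 7.70 against 4.08 to 4.76 in the other 5 arrays. Their levels of Xist, which silences an X chromosome in females, were 9.60, 10.05 and 6.11 respectively, with 12.74 to 12.93 elsewhere, so low 2 and low 4 carried both signals. Whether each of these arrays held RNA of 1 mouse was not tested. The members and the counts of the lists are therefore also given without low 3 and low 4, and without low 2, low 4 and high 4, where this changes a call.

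The follicle keratins Krt75 and Krt79 were lower in high regeneration, and the wound keratins gave no called change. Of the 4 measured members 2 were called lower and 0 higher by limma at an adjusted p under 0.05. The background was 2.47% of all genes called lower and 1.86% called higher. All 4 members had an unadjusted p under 0.05, as had 21.8% of all genes.

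The promoters of the called pair are shown as the sequences of the genes whose signal fell. They are the 250 bases before the RefSeq start of each gene in build GRCm38.p6, both on the minus strand and written 5′ to 3′. Krt75 lies at chr15:101573905-101574154 and Krt79 at chr15:101940325-101940574. Capitals mark matches to a set of motifs listed after the sequences.
Krt75: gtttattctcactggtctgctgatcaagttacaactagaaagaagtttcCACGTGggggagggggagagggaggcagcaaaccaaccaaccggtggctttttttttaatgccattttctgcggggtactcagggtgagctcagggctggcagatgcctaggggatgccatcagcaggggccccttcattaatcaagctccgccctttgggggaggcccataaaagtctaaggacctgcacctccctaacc
Krt79: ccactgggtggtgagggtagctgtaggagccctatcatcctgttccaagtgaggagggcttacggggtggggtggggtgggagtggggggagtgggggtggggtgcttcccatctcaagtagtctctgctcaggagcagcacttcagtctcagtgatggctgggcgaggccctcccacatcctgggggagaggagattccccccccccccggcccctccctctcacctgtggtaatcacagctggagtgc

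Both strands were searched for 4 motifs. The motif of GATA factors was read as AGATAA, that of AP-1 as TGANTCA and that of TCF and LEF factors as CTTTGAT. The E-box was read as CACGTG and was added after the sequences had been read. The Krt75 window held the E-box at positions -201 to -196 from the start and no other of the 4, and the Krt79 window held none. Of 32851 promoter windows of this length 6.02% held the E-box, 9.99% the GATA motif, 6.75% the AP-1 motif and 3.21% the TCF and LEF motif. The windows differed in GC content, at 53.6% in Krt75 and 64.0% in Krt79.

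Krt75 had log2 values of 11.00, 11.55, 10.75 and 11.05 in low 1 to low 4 and of 9.47, 9.44, 8.79 and 8.997 in high 1 to high 4. Every high array lay below every low array, and the lowest low array was 10.75 against a highest high array of 9.47. The change was -1.91 ± 0.20 (SE) on the log2 scale, from 11.09 ± 0.33 (SD, n = 4) to 9.18 ± 0.33, or 3.77-fold lower (limma, adjusted p = 0.00270, 95% interval -2.35 to -1.47). In a whole biopsy, fewer companion layer cells and less Krt75 RNA in each of them cannot be told apart. Krt75 ranked 26 by p among all genes. Without low 3 and low 4 the change was -2.10 at an adjusted p of 0.0121, and without low 2, low 4 and high 4 it was -1.64 and did not pass (adjusted p = 0.0869 by limma, with 2 low and 3 high arrays).

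Krt79 had log2 values of 12.55, 12.58, 12.50 and 12.73 in low 1 to low 4 and of 11.75, 12.24, 11.77 and 11.80 in high 1 to high 4. The groups did not overlap, and high 2 lay apart from the other high arrays towards the low group. The change was -0.70 ± 0.11 (SE), from 12.59 ± 0.10 (SD, n = 4) to 11.89 ± 0.23, or 1.63-fold lower (limma, adjusted p = 0.0134, 95% interval -0.96 to -0.45). The interval of Krt79 lay wholly above that of Krt75, so the log2 change of the companion keratin was the larger of the 2 follicle members. Without low 3 and low 4 the change of Krt79 was -0.68 and did not pass (adjusted p = 0.0770), and without low 2, low 4 and high 4 it was -0.60 (adjusted p = 0.301).

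Krt16, the type I partner of Krt6 at wound edges, had log2 values of 13.08, 12.53, 12.85 and 12.29 in low 1 to low 4 and of 13.20, 12.83, 13.50 and 13.49 in high 1 to high 4. The groups overlapped, since high 2 lay below low 1 and low 3. The change was 0.57 ± 0.20 (SE), from 12.69 ± 0.35 (SD, n = 4) to 13.25 ± 0.32, and did not pass (limma, adjusted p = 0.139, 95% interval 0.13 to 1.01). The lowest Krt16 value was in low 4, the array with the highest muscle and adipocyte means. The change was 0.43 with the muscle marker mean as a covariate (limma, adjusted p = 0.446) and 0.45 without low 3 and low 4 (adjusted p = 0.393), and the adipocyte mean was not tested as a covariate. It was 0.21 without low 2, low 4 and high 4 (adjusted p = 0.674). The latter value is under the value over all arrays by more than 1.5 times.

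Krt17, a type I keratin of the outer root sheath and of wound epidermis, had log2 values of 10.46, 10.53, 10.35 and 10.43 in low 1 to low 4 and of 10.08, 10.005, 10.29 and 10.34 in high 1 to high 4. The groups did not overlap but came close, with 10.35 the lowest in low and 10.34 the highest in high regeneration. The change was -0.26 ± 0.09 (SE), from 10.44 ± 0.07 (SD, n = 4) to 10.18 ± 0.16, and did not pass (limma, adjusted p = 0.124, 95% interval -0.46 to -0.07). The estimates of Krt16 and Krt17 thus had opposite signs, and neither passed. Groups without overlap and with the high arrays below the low arrays were found in 7.29% of all genes.

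**Figure D1:**
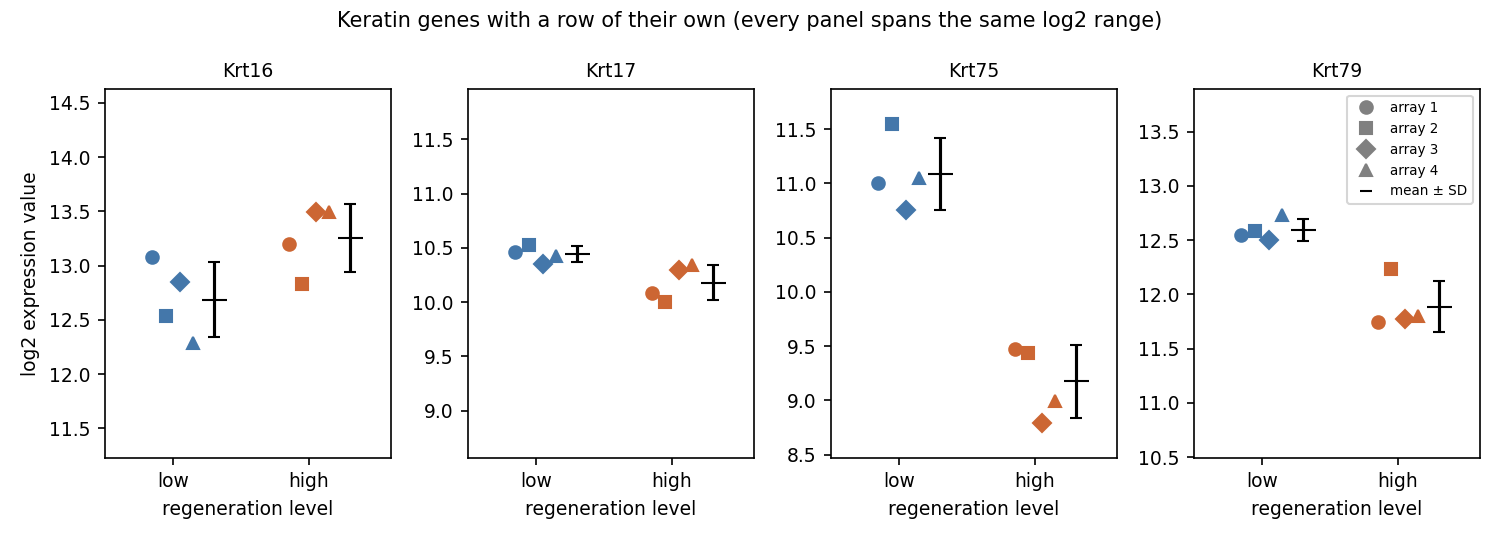
Log2 expression values (y axis) of Krt16, Krt17, Krt75 and Krt79 on each array, with low regeneration in blue and high regeneration in orange, marker shapes for arrays 1 to 4 and black bars for the mean ± SD of 4 arrays. Krt75 shows the widest gap between the groups, Krt79 a smaller one with high 2 nearest to the low arrays, and Krt16 overlaps.

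The signal of Krt6a and Krt6b was available only from shared rows. These genes are close paralogs, and the annotation gives 2 rows to both of them and 1 row each to Krt6b with the gene models Gm5414 and Gm5478. Which gene gave the signal cannot be told apart. The rows were tested in a fit of all 115830 rows, in which 0.142% were called higher. Of the 4 rows 0 were called, and all 4 had positive estimates with every high array above every low array. Their unadjusted p-values ran from 0.00100 to 0.0299 (limma). In the same fit Krt75 passed (adjusted p = 0.00897) and Krt79 did not (adjusted p = 0.0857). The calls of these rows and those of the members over 20259 genes are therefore not on the same scale. Groups without overlap in this direction were found in 4.86% of all rows.

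The row of Krt6b and Krt6a, transcript cluster 6838656, had log2 values of 13.92, 13.81, 13.87 and 13.42 in low 1 to low 4 and of 14.10, 13.93, 14.17 and 14.20 in high 1 to high 4. Low 4 was the lowest array, and high 2 lay just above low 1. The change was 0.35 ± 0.13 (SE; limma over all rows, adjusted p = 0.347). These values lay near the top of the scale, where the highest value of any row was 14.92, and whether this bears on the size of the difference was not tested.

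The row of Krt6a and Krt6b, transcript cluster 6838657, had log2 values of 13.35, 13.19, 13.31 and 12.87 in low 1 to low 4 and of 13.57, 13.40, 13.78 and 13.81 in high 1 to high 4. Low 4 was again the lowest array. The change was 0.46 ± 0.15 (SE; limma over all rows, adjusted p = 0.255).

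The row of Gm5414 and Krt6b ran from 7.35 to 7.75 in low and from 8.05 to 8.12 in high regeneration, a change of 0.52 ± 0.11 (SE; limma over all rows, adjusted p = 0.107). The row of Gm5478 and Krt6b ran from 8.76 to 9.10 in low and from 9.18 to 9.57 in high regeneration, a change of 0.37 ± 0.12 (SE; adjusted p = 0.275). Low 4 was the lowest array in all 4 rows. Without low 3 and low 4 the 4 changes were between 0.24 and 0.41, and without low 2, low 4 and high 4 between 0.17 and 0.44, with 0 rows called in either setting (adjusted p of 0.319 to 0.615 and of 0.527 to 0.770).

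**Figure D2:**
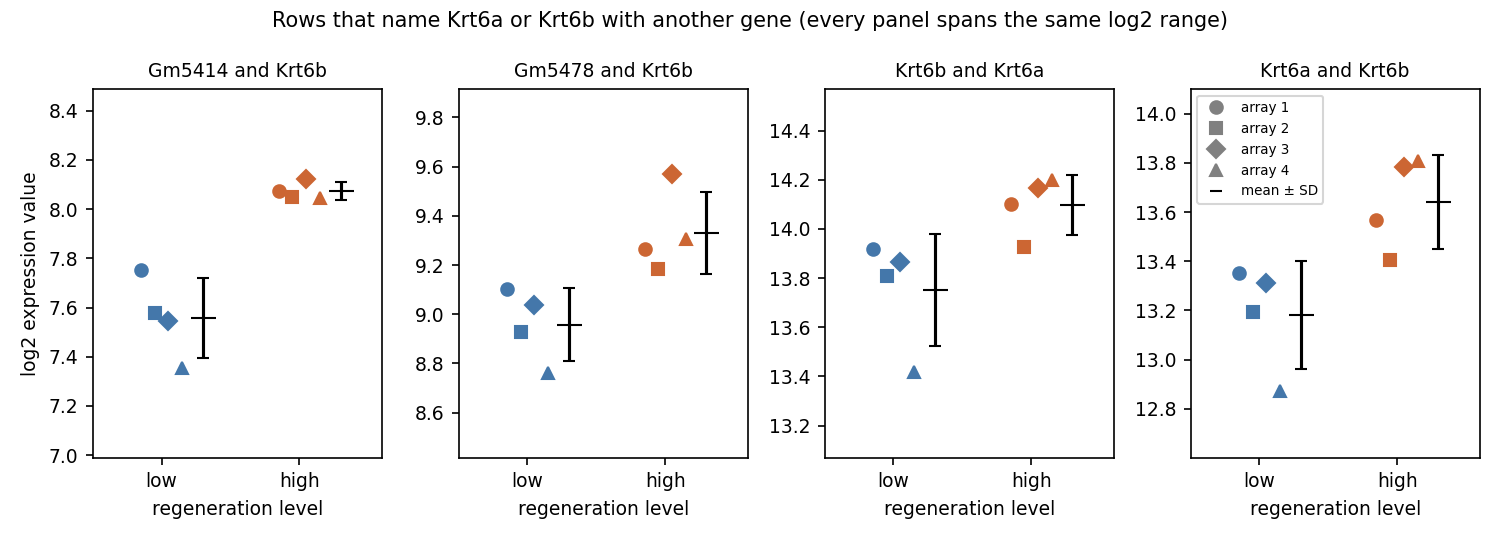
Log2 expression values (y axis) on each array for the 4 rows that name Krt6a or Krt6b together with another gene, with low regeneration in blue, high regeneration in orange and black bars for the mean ± SD of 4 arrays. Every high array lies above every low array in each panel, low 4 is the lowest array throughout, and no row passed the test.

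The contrast between wound and follicle keratins was described by array. Each gene was first set relative to its own mean over the low arrays, and the mean of Krt75 and Krt79 was then subtracted from that of Krt16 and Krt17. The contrast was 0.27, -0.26, 0.25 and -0.26 in low 1 to low 4 and 1.30, 0.85, 1.89 and 1.79 in high 1 to high 4, on the log2 scale. All high arrays lay above all low arrays, at a mean of 1.46 ± 0.48 (SD, n = 4) against a low SD of 0.30. No test was made of this score, since the members were chosen by name with earlier results known.

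The follicle and the wound part of the contrast moved by different amounts. The follicle pair had a high mean of -1.31 ± 0.24 (SD, n = 4), with arrays from -1.56 to -1.003 against -0.21 to 0.23 in low regeneration. The wound pair had a high mean of 0.15 ± 0.24, with arrays from -0.15 to 0.35 that overlapped the low arrays at -0.21 to 0.21. This pair averages Krt16 and Krt17, whose estimates had opposite signs, and holds no Krt6 row. The mean of the shared rows that name both Krt6a and Krt6b, set relative to low in the same way, did not overlap. It ran from 0.20 to 0.54 in high and from -0.32 to 0.17 in low regeneration. With Krt16 alone as the wound keratin the contrast was 1.87 ± 0.56, from 1.14 in high 2 to 2.37 in high 3.

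High 2 was the high array with the lowest Krt16 and the highest Krt79, and so with the smallest contrast. High 3 and high 4 had the highest Krt16 and the lowest Krt75 of the high arrays. After the group means were subtracted, the Pearson correlation over the 8 arrays was -0.78 between Krt16 and Krt79, -0.61 between Krt16 and Krt75, 0.38 between Krt75 and Krt79 and 0.53 between Krt16 and Krt17. Krt16 and the 4 shared Krt6 rows correlated at 0.72, 0.86, 0.89 and 0.95. These values are given as a description with no p, and the points share the arrays and their biopsy content.

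**Figure D3:**
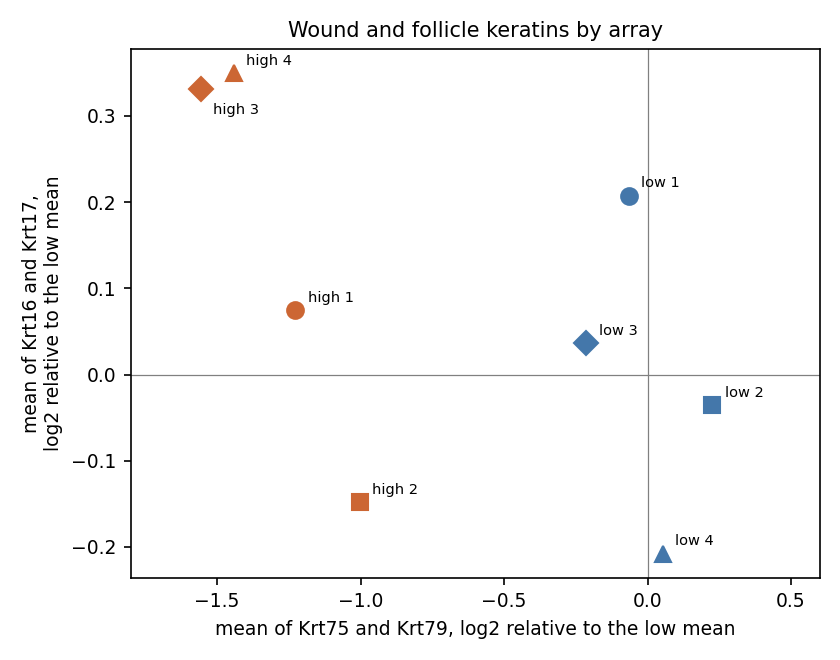
Mean of Krt75 and Krt79 (x axis) against the mean of Krt16 and Krt17 (y axis) by array, each gene as log2 relative to its mean over the low arrays, with blue for low and orange for high regeneration. The groups separate along the follicle axis, from -1.56 to -1.003 in high against -0.21 to 0.23 in low regeneration, and overlap along the wound axis. The wound axis holds no row of Krt6a or Krt6b.

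Genes most like each member were sought by the same group-centred correlation over 8 arrays among 9622 genes at or above the median level. Nearest to Krt75 were Dsg4 (r = 0.99), a desmosomal cadherin of the hair shaft, Krt27 (0.97), an inner root sheath keratin, and Celsr1 (0.97), a planar polarity cadherin. These were also called lower, at -2.69, -2.01 and -0.54. Nearest to Krt79 were Ecpas (0.96), Gdpgp1 (0.95) and Abhd6 (0.93), to Krt16 Eif4e2 (0.99), Kctd13 (0.98) and Pkd1 (0.98), and to Krt17 Mest (0.98), Map3k6 (0.98) and Heyl (0.97). None of the 9 nearest to Krt79, Krt16 or Krt17 was called. With 8 arrays and so many genes, high correlations are found for any gene.

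Other follicle keratins were also called lower. Of 37 other keratins measured 10 were called lower and 0 higher, with a median change of -0.60 against 0.03 over all genes. The share of all genes called lower was 2.47%. The number of other keratins called lower was 16 without low 3 and low 4 and 0 without low 2, low 4 and high 4. In these settings 198 and 10 of all 20259 genes were called lower, against 500 over all arrays. Inner root sheath keratins, which line the canal of the growing hair, had 7 of 8 called lower at a median of -2.00. Their median was -1.64 without low 2, low 4 and high 4. Krt25 ran from 10.36 to 11.01 in low and from 7.91 to 9.12 in high regeneration, a change of -2.06 ± 0.25 (SE; limma, adjusted p = 0.00576). Krt72 and Krt28 were at -1.99 ± 0.28 and -2.08 ± 0.30. Hair shaft keratins had 3 of 10 called lower, Krt35 (-2.09), Krt36 (-1.13) and Krt82 (-1.55), at a median of -1.36. Their number was 10 without low 3 and low 4, 6 without low 3, and 1 without high 3 or without high 4. Krt82 passed narrowly (limma, adjusted p = 0.0458), and it did not pass with the replicate block (adjusted p = 0.0529) or in 6 of the 8 fits that left out 1 array. Krt75 at -1.91 was thus close in size to the inner root sheath median, and Krt79 at -0.70 was the smaller change.

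Epidermal keratins outside the follicle list had 0 of 9 called, with 3 unadjusted p-values under 0.05. The share of all genes with such a p-value was 21.8% (limma). Of the basal keratins, Krt14 was at 0.38 ± 0.13 (limma, adjusted p = 0.134) and Krt15, also a keratin of follicle stem cells, at -0.74 ± 0.21 (adjusted p = 0.0823), while Krt5 was at 0.05. Of the suprabasal keratins, Krt77, a keratin of eccrine ducts in human skin, was at -1.28 ± 0.37 (adjusted p = 0.0901), with the high arrays from 9.73 to 11.75 and the low arrays from 11.45 to 12.15, and Krt1 at 0.14 ± 0.07 (adjusted p = 0.265). Simple and mucosal keratins had 0 of 10 called and 3 unadjusted p-values under 0.05, with Krt23 at -0.60 ± 0.16 (adjusted p = 0.0659) and Krt222 at 0.20 ± 0.07 (adjusted p = 0.132). Without high 2, Krt77 (-1.67), Krt15 (-0.94) and Krt23 (-0.73) were called lower (limma, adjusted p of 0.0160, 0.0217 and 0.0357). Krt23 also passed with the replicate block (adjusted p = 0.0290) and among genes at or above the median level (adjusted p = 0.0452).

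**Figure D4:**
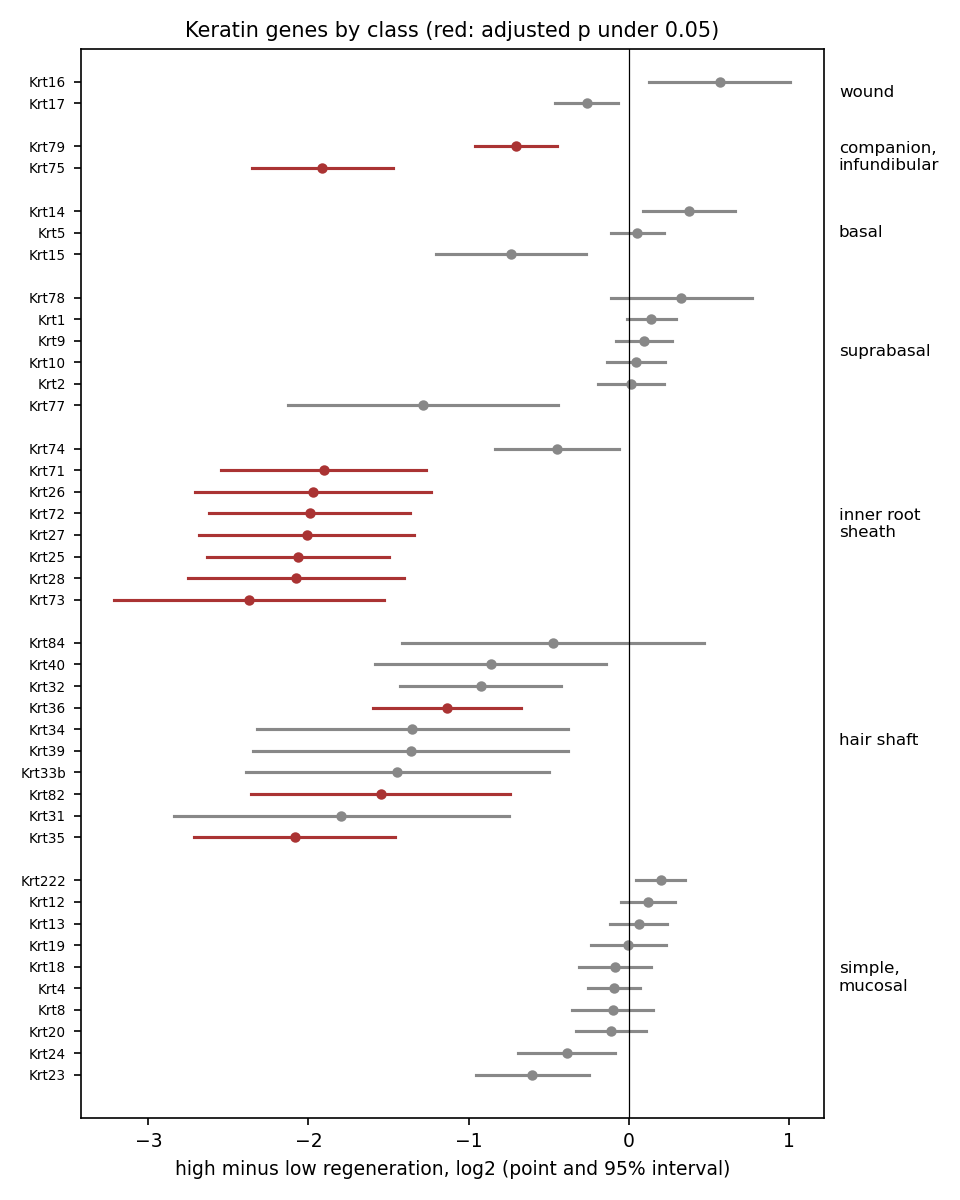
Change between high and low regeneration (x axis, log2, point with its 95% interval) of the measured keratin genes by class, with genes at an adjusted p under 0.05 in red. Krt75, Krt79, 7 of 8 inner root sheath and 3 of 10 hair shaft keratins are called lower, and Krt16, Krt17, basal, suprabasal, simple and mucosal keratins are not called.

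Called and uncalled genes lay in the same chromosomal stretch. In the RefSeq order of protein-coding genes from Krt75 to Krt79, 14 genes in all, Gm5414, Krt6b and Krt6a come directly after Krt75 and before Krt5. Of the 10 measured genes in this stretch 5 were called lower (Krt75, Krt71, Krt72, Krt73 and Krt79) and 5 were not called (Krt5, Krt2, Krt1, Krt77 and Krt4). The called members Krt75 and Krt79 were chosen as its ends, so their calls were in the count from the outset. The called Krt71, Krt72 and Krt73 are inner root sheath keratins that lie side by side, at -1.90, -1.99 and -2.37. Krt16 and Krt17 are direct neighbours in another stretch, beside Krt14, and 0 of 7 measured genes there were called. Over all genes 2.47% were called lower and 1.86% higher.

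Other genes of the wound-edge keratinocyte were set beside the wound keratins. Of 28 measured genes 4 were called higher and 0 lower, 27 had positive estimates, and the median change was 0.55 against 0.03 over all genes. The share of all genes called higher was 1.86%, and that called lower 2.47%. The called genes were the IL-36 family cytokines Il1f9 (1.13 ± 0.13, limma adjusted p = 0.00488), Il1f8 (0.83 ± 0.16) and Il1f6 (1.20 ± 0.25), and Sprr1b (1.29 ± 0.27), a cornified envelope protein. Il1f9 ran from 10.28 to 10.92 in low and from 11.55 to 11.90 in high regeneration. Low 4 was the lowest array in each of the 4 genes, as it was in Krt16 and the shared Krt6 rows. Leaving out 1 array left 1 called without low 2, high 3 or high 4, and 2 without low 3 or high 2. It left 3 called without low 4, and 6 without low 1 or high 1. The called number was 2 without low 3 and low 4 and 0 without low 2, low 4 and high 4. Of all genes, 127 and 5 were called higher in these settings.

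Described regulators of Krt6, Krt16 and Krt17 had 0 of 14 called, with 7 unadjusted p-values under 0.05. The share of all genes with such a p-value was 21.8% (limma). The smallest p-values were those of Egfr, the receptor of epidermal growth factor, at -0.29 ± 0.07 (limma, adjusted p = 0.0561) and of Gli1, a transcription factor of the hedgehog pathway, at -0.50 ± 0.14 (adjusted p = 0.0858). Egfr was called lower after scaling by median or cyclic loess and with eBayes with trend and robust. It was also called among genes at or above the median level and with the keratinocyte marker mean as a covariate (adjusted p of 0.0322 to 0.0481 in these settings). Proteins that anchor or bind keratin filaments had 0 of 11 called, with 2 unadjusted p-values under 0.05. Plec, the cytolinker plectin, was at -0.24 ± 0.08 and Sfn, an adaptor protein of keratinocytes, at 0.37 ± 0.15 (limma, adjusted p of 0.137 and 0.193).

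Upper follicle and companion layer genes were set beside Krt75 and Krt79. Of 12 measured genes 2 were called lower and 1 higher, 10 had negative estimates, and the median change was -0.35. Over all genes 2.47% were called lower and 1.86% higher, and the median change was 0.03. Cst6, a protease inhibitor of the epidermis and follicle, ran from 9.36 to 9.67 in low and from 8.91 to 9.19 in high regeneration, a change of -0.46 ± 0.09 (SE; limma, adjusted p = 0.0232). Lrig1, a stem cell marker of the upper follicle, changed by -0.47 ± 0.10 (adjusted p = 0.0407). Aqp3, a water and glycerol channel of the epidermis, was higher by 0.81 ± 0.19 (adjusted p = 0.0461), as the mean of 2 rows. These calls were not kept in most fits that left out 1 array, while the estimates kept their sign. They ran from 0.63 to 0.91 for Aqp3, from -0.51 to -0.40 for Cst6 and from -0.55 to -0.41 for Lrig1. Leaving out 1 array left 0 called higher in each case, and 0 called lower without low 2, low 4, high 1, high 3 or high 4 and 1 without low 1 or low 3.

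**Figure D5:**
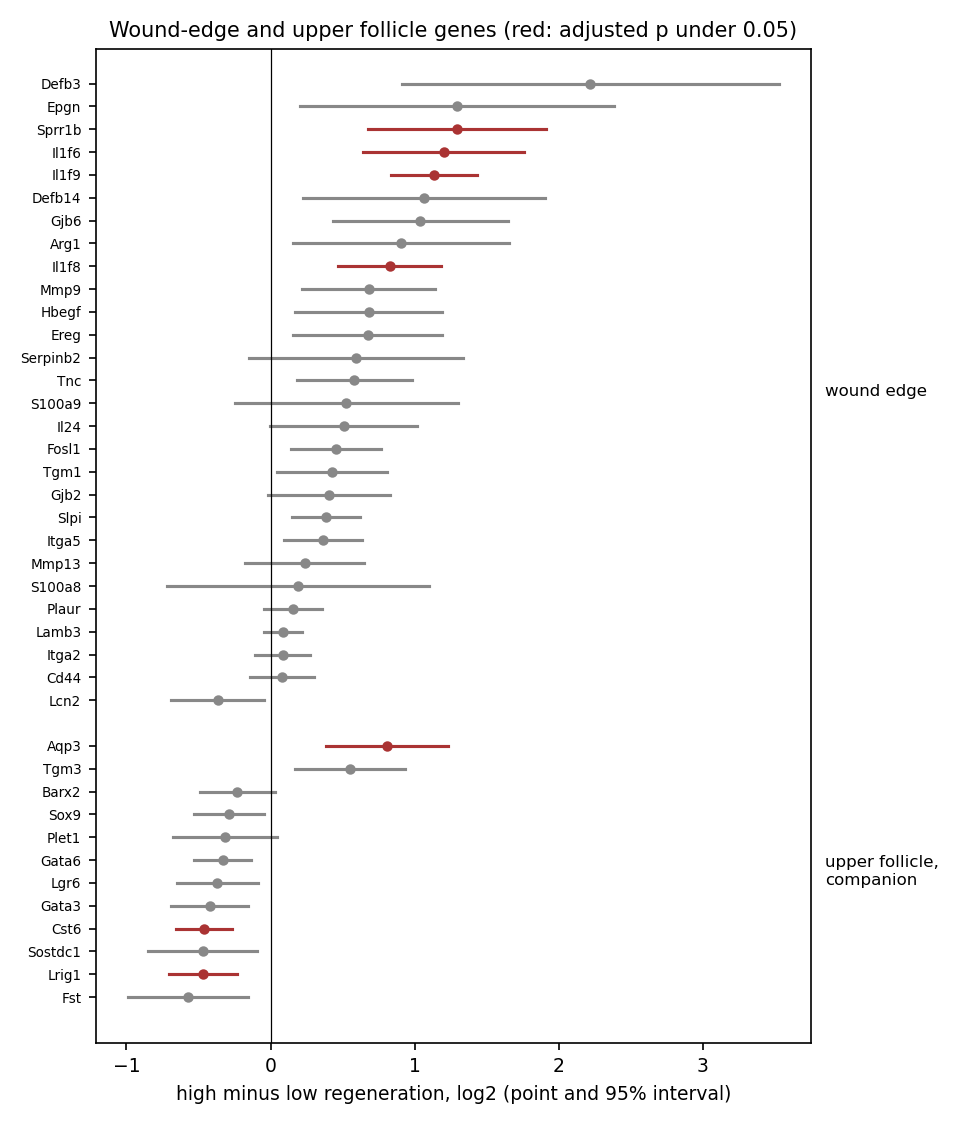
Change between high and low regeneration (x axis, log2, point with its 95% interval) of wound-edge keratinocyte genes and of upper follicle and companion layer genes, with genes at an adjusted p under 0.05 in red. Of the wound-edge genes 27 of 28 estimates are positive with 4 called, and of the upper follicle genes 10 of 12 are negative with 2 called lower and 1 higher. Over all genes 2.47% were called lower and 1.86% higher.

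Changes in the markers of other cell types differed in size. Melanocyte markers, pigment cells that sit in the hair bulb and epidermis, had 7 of 8 called lower at a median of -0.96, with Tyrp1 at -2.14, Pmel at -1.05 and Dct at -2.73, and array means of 8.02 to 8.49 in low and 6.80 to 7.31 in high regeneration. The number called was 5 without low 3 and low 4 and 0 without low 2, low 4 and high 4. Of all genes, 198 and 10 were called lower in these settings, against 500 (2.47%) over all arrays. Fibroblast markers had 0 of 8 called by limma and 1 unadjusted p under 0.05, with Col6a1 at 0.25 and Dcn at -0.14, and array means of 10.98 to 11.16 in low and 11.03 to 11.17 in high regeneration. Leukocyte markers had 0 of 6 called and 2 such p-values, with Csf3r at 0.50 and Ptprc at 0.24, and array means of 8.68 to 9.01 and 8.97 to 9.26. Keratinocyte markers had 0 of 9 called and 3 such p-values, with Trp63, a transcription factor of basal keratinocytes, at -0.24 and Krt14 at 0.38. Muscle markers had 0 of 11 called and 2 such p-values, with Ttn at -2.24 and Acta1 at -1.59. Without low 3 and low 4, the arrays with high muscle signal, Ttn was at -0.13 and Acta1 at -0.10. Adipocyte markers had 0 of 8 called and 6 such p-values, with Plin4 at -0.65 and Adipoq at -1.89, or -0.34 and -0.74 without low 3 and low 4. Sex-linked genes had 0 of 4 called and 0 such p-values, with Eif2s3y at -1.03 and Uty at -0.65. Such p-values were found in 21.8% of all genes. With the keratinocyte marker mean as a covariate Krt75 was at -1.86 and Krt79 at -0.65, and both passed (limma, adjusted p of 0.00794 and 0.0318). With the muscle marker mean as a covariate Krt75 was at -2.09 and passed (adjusted p = 0.00816), and Krt79 was at -0.67 and did not (adjusted p = 0.0642). The part of the melanocyte, fibroblast, leukocyte and adipocyte markers in the keratin results was not tested.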

How the data were processed

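RNA of wound scars was labelled after random-primed amplification, per the labels' protocols, and measured on 8 Affymetrix Exon arrays. Each deposited value is the log2 expression of a transcript cluster (all probes of a locus combined). Affymetrix Expression Console and PLIER are named in the submitters' processing notes, and no background correction or normalization is stated there. No detection calls were used, so low values can hold background.

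Of 115830 rows, 25539 have 1 gene symbol in the platform annotation, 2300 several and 87991 none. Rows with 1 symbol were averaged per gene on the log2 scale. High minus low regeneration was tested in limma 3.58.1 (R 4.3.3, lmFit and eBayes, two-sided), with Benjamini-Hochberg adjustment over 20259 genes and a threshold of 0.05. The fit was tested on simulated data with noise drawn independently for each gene. It recovered 62.7% of changes of 0.5, 97.0% of 1 and 98.5% of 2 on the log2 scale, with 9 false among 181 calls. Differences of arrays in muscle, adipocyte or sex-linked signal were not simulated. Rows naming Krt6a or Krt6b with another gene were tested over all rows, because the rule leaves these genes without a row of their own. Each array was counted as 1 mouse, per the design text, and their number limits the precision.

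The members and lists were chosen with earlier results of these data known. All measured members are named. Of each list, called genes are named up to 6, otherwise 3 in each direction with the smallest p, and 2 where none was called; members of the chromosomal stretch outside that rule were named after their values were seen. Alternatives were the replicate block, scaling by median, quantile or cyclic loess, eBayes with trend and robust, a filter at the median level, the brightest row, all rows, marker means as covariates and leaving out arrays. Those on the upper follicle, inner root sheath, hair shaft and melanocyte lists and the shared rows were added after the data were seen.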

Additional observations from a re-analysis of the deposited data

Results flagged for a closer look

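Of 90 groups of 4 arrays checked, over the members, the named genes and the shared rows, 7 had an array whose gap to the nearest other, as a share of the group's range, was over the 95% critical value of Dixon's test, a limit that chance passes in about 1 in 20 groups. Among the members this was Krt79 in high 2, at 12.24 against 11.75 to 11.80 in the other high arrays. Without high 2 the change of Krt79 was -0.82 (limma, adjusted p = 0.00484). Among the named genes, Krt15 was at 9.64 in low 1 against 9.84 to 9.87, Il1f8 at 10.02 in low 4 against 10.60 to 10.69 and at 11.01 in high 1 against 11.39 to 11.44, and Csf3r, a granulocyte receptor, at 8.73 in high 1 against 7.98 to 8.09. The Y-linked genes Eif2s3y and Uty were at 7.70 and 6.99 in high 4 against 4.08 to 4.22 and 4.17 to 4.33 in the other high arrays.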

How the results depend on the processing

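Under all 20 alternatives Krt75 and Krt79 kept a negative and Krt17 a negative estimate, and Krt16 a positive one. Leaving out 1 array at a time gave -2.02 to -1.76 for Krt75 and -0.82 to -0.65 for Krt79, all called, and 0.43 to 0.71 for Krt16 and -0.32 to -0.21 for Krt17, none called. Krt75 did not pass without low 2, low 4 and high 4 (-1.64). Krt79 did not pass there (-0.60), without low 3 and low 4 (-0.68), with the muscle mean as a covariate (-0.67) or among all rows tested as rows (-0.70). Members called lower were then 1 without low 3 and low 4, 0 without low 2, low 4 and high 4 and 1 with the muscle covariate. Other keratins called lower were 16, 0 and 16 in these 3 settings, and 8 to 13 with 1 array left out. Wound-edge genes called higher were 2, 0 and 2, and 1 to 6 with 1 array left out. The contrast was 1.87 without Krt17, 1.32 to 1.66 with 1 array left out, and 1.09 without low 2, low 4 and high 4. In the last setting the mean change of Krt16 and Krt17 was -0.04, against 0.15 over all arrays.

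With the replicate block Krt75 and Krt79 still passed, wound-edge genes called higher were 2, and upper follicle genes called were 0 higher and 0 lower. Same-numbered arrays had correlations of deviations from -0.26 to 0.02, and none correlated best with its own number. These deviations also hold the differences of arrays in muscle, adipocyte and sex-linked signal. The check therefore cannot tell whether same-numbered samples were paired. Upper follicle genes called higher were 0 with median centring, without low 3 and low 4, without low 2, low 4 and high 4, and with the muscle covariate, and 0 with 1 array left out. Those called lower were 1, 0 and 1 in the last 3 settings, 1 with the keratinocyte covariate, and 0 to 2 with 1 array left out. Calls over all genes were 376 higher and 500 lower, 212 and 593 after median centring, and 105 and 134 with the block. They were 127 and 198 without low 3 and low 4, 5 and 10 without low 2, low 4 and high 4, 118 and 221 with the muscle covariate, and from 129 to 536 and from 163 to 669 with 1 array left out. The cause of these differences was not tested.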
